A study of Mus musculus with 12 samples.

Results

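Nuclear oxidative phosphorylation genes are the nuclear genes that encode the subunits and some assembly factors of the mitochondrial respiratory chain and of ATP synthase. They were taken by gene name (every symbol that begins with Nduf, Uqcr, Atp5 or one of the COX subunit stems Cox4 to Cox8, with Sdha, Sdhb, Sdhc, Sdhd and Cycs added and names containing -ps dropped, whether or not the gene encodes a subunit), which gave 93 symbols, and 88 of them passed a filter of at least 1 FPKM in at least 3 libraries. They stand among 10581 genes that passed the filter and 23997 genes in all. The 88 comprise 44 genes of complex I (36 subunits and 8 assembly factors), 4 of complex II, 8 of complex III, Cycs, 15 of complex IV and 16 of complex V. The 5 that did not pass, Cox4i2, Cox7b2, Cox8b, Cox8c and Ndufa4l2, are paralogs of complex IV subunits, and each stayed under 0.3 FPKM in every library. The subunits encoded by the mitochondrial genome were not analysed here.

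The cells were bone marrow-derived macrophages (BMDMs), which are marrow cells grown for 7 d with M-CSF at 10 ng/ml, from male C57BL/6 mice of 8 to 10 weeks. WT and Pim1-/- cells, the latter from mice that had lost the kinase gene Pim1 by CRISPR/Cas9 editing, were left untreated or given lipopolysaccharide (LPS), a bacterial ligand of TLR4, at 100 ng/ml for 4 h. Each of the 4 groups has 3 libraries of stranded mRNA. The labels do not say whether the 3 came from separate mice or cultures, so the p-values measure the spread between these libraries, which may be technical.

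In oxidative phosphorylation, complexes I and II pass electrons from NADH and succinate to coenzyme Q, complex III passes them to cytochrome c, and complex IV passes them to oxygen. Complexes I, III and IV pump protons across the inner membrane, and complex V uses their return to make ATP. Most subunits are nuclear-encoded, are made in the cytosol and are imported, and assembly factors help to build the complexes without staying in them. Macrophages activated by LPS are known for a shift from respiration towards glycolysis, and complex II, which is also an enzyme of the tricarboxylic acid cycle, is known for its part in that shift.

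The values are FPKM, the fragments assigned to a gene scaled by the length of its transcript and by a factor for the library. They may be compared between genes, whereas a comparison between libraries rests on that factor. The summed FPKM of a library ran from 452511 to 849323. No counts were given. From the steps between low values, an estimated 25500000 to 33600000 fragments were assigned to genes per library, an estimate that moves with the transcript lengths assumed. Pim1 itself fell from 22.9 ± 1.80 to 8.74 ± 0.752 FPKM (SD, n = 3) in untreated Pim1-/- cells and stood at 219 ± 15.6 against 645 ± 17.8 FPKM after LPS, and RNA assigned to the gene was still measured in every Pim1-/- library. The replicates lay close together: the median coefficient of variation of the members at 10 FPKM or more was 2.89% to 5.53% across the 4 groups. Small differences passed the test (limma on log2(FPKM + 1), p under 0.05 and FDR under 0.1), and 76.2% of all genes did so between untreated Pim1-/- and WT cells.

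The members were among the more abundant transcripts. Their median level over the 12 libraries was 96.7 FPKM, against 10.4 FPKM for all genes tested, and 42 of the 88 reached 100 FPKM, as did 8.43% of all genes tested. Cox4i1, the ubiquitous form of a complex IV subunit, had the highest level of any member, 670 ± 26.5 FPKM in untreated WT cells (SD, n = 3), and was also the highest of complex IV. Ndufa3 was highest in complex I with 206 ± 8.35 FPKM, Uqcrh in complex III with 366 ± 20.1 FPKM and Atp5l in complex V with 399.7 ± 28.5 FPKM. In complex II, Sdhd had the highest mean over all libraries and Sdha, the flavoprotein that oxidises succinate, the lowest, although in untreated WT cells Sdhb, Sdhd and Sdhc at 97.9, 97.2 and 93.1 FPKM lay within their spread of each other, above Sdha at 69.6 FPKM. The lowest levels in untreated WT cells were those of assembly factors and muscle or testis isoforms: 2.50 ± 0.134 FPKM for Atp5s in complex V, 0.371 ± 0.0949 FPKM for Cox6a2 and 1.31 ± 0.590 FPKM for Cox6b2 in complex IV, and 1.46 ± 0.159 FPKM for Ndufaf5 in complex I. Uqcrc2, a core protein of complex III without a redox centre, was the lowest of that complex in untreated WT cells at 55.5 ± 2.59 FPKM. Only 10 members had a mean under 10 FPKM.

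The promoters of these genes are known for sites of NRF1, a factor that drives respiratory chain genes. Windows from RefSeq (GRCm38.p6; 250 bases before to 50 after a start site) were found for 75 of the 88 members, and both strands were searched for 8 sets of letters. The NRF1 letters, GCGCA and GCGC with 1 base of any kind between them, occurred in the windows of 25.3% of the members and 12.8% of the 8401 tested genes with a window, and the YY1 letters AAGATGGC in 14.7% and 5.9%. The letters of an ETS site, CCGGAAG, occurred in 22.7% and 22.5%, and GGGCGG, a GC box, in 45.3% and 70.0%. TGACGTCA, the cyclic AMP response element (CRE), occurred in 6.7% and 3.7%, its first letters TGACG, which overlap it, in 36.0% and 37.0%, GGGANTTCC, a kappaB site, in 2.7% and 3.0%, and TTTCCCGC, an E2F site, in 0 of the 75 members and 2.5% of the tested genes. A match is a description of letters and not evidence of binding. Windows are printed for Cycs, which changed most on LPS, for Ndufa5, which was over 2-fold higher in untreated Pim1-/- cells, and for Sdha, which did not pass in any comparison on the deposited scale with the level filter; they were picked from 8 members looked at, because these 3 held NRF1 or CRE letters and the other 5 held neither. Capitals mark CRE letters in Cycs and NRF1 letters in the others. The search took exact letters, so near matches were missed and are not marked. The Cycs window holds tcgcatgcgc, which differs from the NRF1 letters by 1 base, and ttacgtca, which differs from the CRE by 1 base.
Cycs, chr6:50566520-50566819, minus strand: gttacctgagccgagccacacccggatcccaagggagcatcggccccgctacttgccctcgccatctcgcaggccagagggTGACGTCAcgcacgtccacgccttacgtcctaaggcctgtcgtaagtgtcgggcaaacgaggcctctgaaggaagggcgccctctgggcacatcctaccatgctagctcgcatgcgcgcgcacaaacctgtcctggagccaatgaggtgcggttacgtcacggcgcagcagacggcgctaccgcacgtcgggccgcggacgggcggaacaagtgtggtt
Ndufa5, chr6:24527641-24527940, minus strand: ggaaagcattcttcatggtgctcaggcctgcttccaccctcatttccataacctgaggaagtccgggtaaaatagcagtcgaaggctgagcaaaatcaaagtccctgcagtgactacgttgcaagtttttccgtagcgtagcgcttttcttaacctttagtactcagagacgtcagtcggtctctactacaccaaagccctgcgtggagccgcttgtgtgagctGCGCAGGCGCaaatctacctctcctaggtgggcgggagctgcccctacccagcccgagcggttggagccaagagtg
Sdha, chr13:74350191-74350490, minus strand: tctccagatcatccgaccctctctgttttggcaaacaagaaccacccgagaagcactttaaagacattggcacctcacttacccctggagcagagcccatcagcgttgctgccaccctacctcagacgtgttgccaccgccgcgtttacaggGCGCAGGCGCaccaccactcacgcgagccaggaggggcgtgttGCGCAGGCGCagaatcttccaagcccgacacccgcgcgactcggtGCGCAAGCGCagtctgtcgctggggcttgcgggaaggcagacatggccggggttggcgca
The Sdha window holds 3 matches and the Ndufa5 window 1, which overlaps a second RefSeq window of Ndufa5 that holds the same match.

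In untreated cells, most of the nuclear oxidative phosphorylation genes were higher in Pim1-/- than in WT BMDMs. Of the 88 members, 72 rose and 7 fell, while 33.4% of all genes tested were called higher and 42.8% lower. The median log2 fold change was 0.48 over the members and −0.05 over all genes tested. In the same 72 and 7 counts of members, the 3 Pim1-/- values lay wholly above or wholly below the 3 WT values, where 34.2% and 44.2% of all genes tested did so. The changes were mostly small: 6 members, against 4.40% of all genes tested, rose more than 2-fold and none fell that far, as 3.37% of all genes did. They were Cycs, Uqcrq, Ndufaf2, Ndufa12, Ndufa5 and Cox6a2. All these counts hold 2 members, Cox6a2 and Cox6b2, that met the level filter only through libraries of the genotype in which they are high, so that the filter favoured a difference. Without them 71 of 86 members rose and 6 fell, 5 of them rose more than 2-fold, and the median was 0.48.

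**Figure D1:**
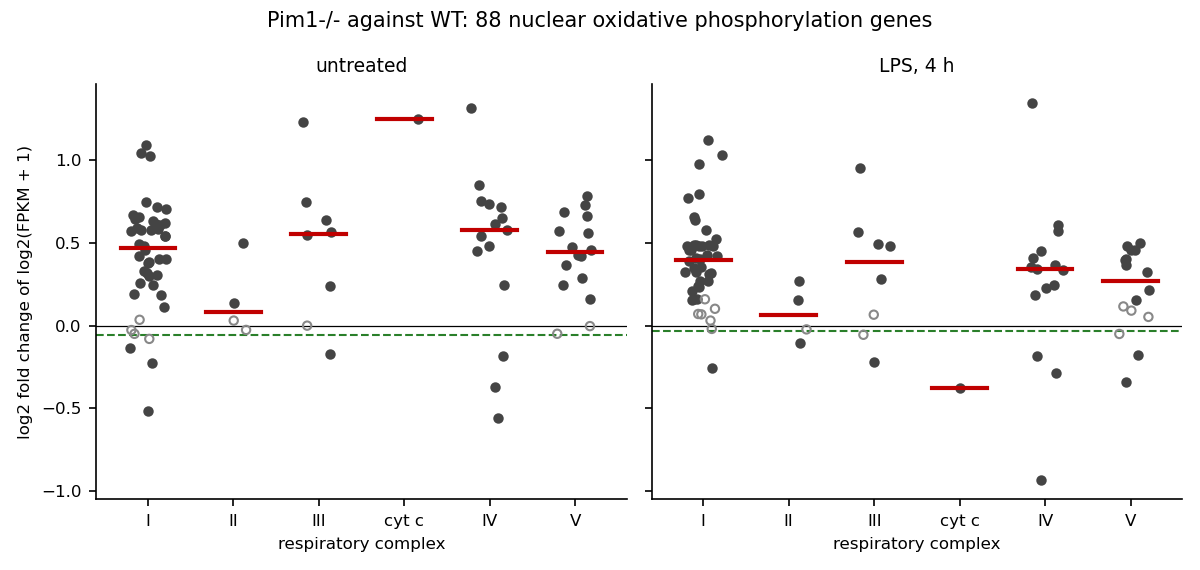
Log2 fold change of log2(FPKM + 1) between Pim1-/- and WT BMDMs for each of the 88 members (points) by respiratory complex, untreated on the left and after LPS on the right; filled points passed the test, open points did not, red bars are medians by complex and the dashed green line is the median of all 10581 genes tested. Most points lie above the line in both panels, complex II lies closest to 0, and cytochrome c (Cycs) lies at 1.25 on the left and −0.38 on the right.

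Cycs encodes somatic cytochrome c, the soluble carrier between complexes III and IV (GRCm38 chromosome 6, 50562563 to 50566538, minus strand). Its level was 12.5, 12.9 and 12.4 FPKM in the untreated WT libraries and 34.6, 32.1 and 27.7 FPKM in the untreated Pim1-/- libraries. Every Pim1-/- value lay above every WT value, and the log2 fold change was 1.25 ± 0.07 (SE, adjusted p = 1.3e-10). Processed copies of Cycs and of several other members exist in the genome, and how reads shared with such copies were assigned is not given in the sources used here.

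Uqcrq, a small subunit of complex III, showed 107, 111 and 102 FPKM in WT and 267, 244 and 244 FPKM in Pim1-/- libraries, without overlap, with a log2 fold change of 1.23 ± 0.05 (adjusted p = 1.3e-11). Of the 8 members of complex III, 6 rose, with a median of 0.56. Uqcrfs1, the Rieske iron-sulfur protein and the redox subunit in the list, rose by 0.24 ± 0.05, a call lost with an adjustment for the GC content and length of the genes (0.057). Uqcrh was level at 366 FPKM in both genotypes, and Uqcrc1, a core protein of the complex, fell by 0.17 from 70.3 ± 1.70 to 62.4 ± 3.21 FPKM (SD, n = 3).

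In complex I, 37 of 44 members rose and 3 fell, with a median log2 fold change of 0.47. Ndufa12, an accessory subunit, stood at 57.0, 54.2 and 49.8 FPKM in WT and at 113, 113 and 109 FPKM in Pim1-/- libraries (1.05 ± 0.05, adjusted p = 4.2e-11). Ndufaf2, the assembly factor that is a paralog of Ndufa12, stood at 12.1, 15.7 and 11.6 FPKM against 30.2, 28.6 and 27.7 FPKM (1.09 ± 0.11, adjusted p = 3e-07). Ndufa5, an accessory subunit of the peripheral arm, rose by 1.02 ± 0.08. In each of these 3 genes the groups were well apart.

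The core subunits of the peripheral arm, which carry the flavin and the iron-sulfur clusters or the quinone site, changed less, with a median of 0.19. Ndufs8 (0.63 ± 0.04), Ndufs1 (0.59 ± 0.05), Ndufv2 (0.58 ± 0.07), Ndufv1 (0.19 ± 0.04) and Ndufs3 (0.11 ± 0.05) rose. Ndufs7 did not pass (−0.03 ± 0.06). Among the 8 assembly factors, 7 rose and Atp5sl, which in spite of its symbol is a factor of the distal membrane arm, fell by 0.52 from 12.7 ± 0.328 to 8.59 ± 0.681 FPKM (SD, n = 3). Ndufa6 also fell, from 157 ± 4.53 to 143 ± 4.00 FPKM, by 0.14. The call of Ndufs3 was lost without the third WT library (0.071) or the first Pim1-/- library (0.090), with median-ratio scaling (0.10), without the mean-variance trend and with the GC and length adjustment (0.063). The call of Ndufa6 was lost without the second WT library (−0.12) and with every library scaled to equal FPKM sums (−0.081).

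Complex II moved least. The WT libraries held Sdha at 69.4, 71.3 and 68.0 FPKM and the Pim1-/- libraries at 67.8, 68.6 and 68.5 FPKM, so the ranges overlapped and the log2 fold change was −0.03 ± 0.04 (adjusted p = 0.52). Sdhc, a membrane anchor, did not pass either (0.03 ± 0.04), except at equal FPKM sums (0.088). The iron-sulfur subunit Sdhb rose by 0.13 ± 0.05, a call lost without the first Pim1-/- library (0.096), and the other anchor Sdhd by 0.50 ± 0.06.

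In complex IV all 15 members passed, 12 higher and 3 lower, with a median of 0.58. These counts hold Cox6a2, the heart and muscle form of COX6A, which reached 1 FPKM only in Pim1-/- libraries, and Cox6b2, the testis form of COX6B, which reached it only in WT libraries, so their values are a description. Cox6a2 was at 0.455, 0.268 and 0.388 FPKM in WT and at 2.39, 2.71 and 2.17 FPKM in Pim1-/- libraries. Cox6b2 lay between 0.832 and 1.97 FPKM in WT and between 0.206 and 0.819 FPKM in Pim1-/- libraries. Its call was lost with no filter (−0.56) and under quantile normalization (−0.51). It was also lost without the first WT library (−0.36) or the second Pim1-/- library (−0.38). The ubiquitous isoforms Cox6b1 (0.62 ± 0.06), Cox6a1 (0.54 ± 0.05), Cox8a (0.45 ± 0.05) and Cox7a2 (0.85 ± 0.06) rose, as did Cox7a1 (0.75 ± 0.16). Cox4i1, the most abundant of all, fell by 0.18 from 680, 691 and 640.4 to 616, 572 and 581 FPKM. Cox7a2l, which links complexes III and IV in supercomplexes, fell by 0.37 from 377 ± 11.8 to 291 ± 12.9 FPKM.

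In complex V, 14 of 16 members rose and none fell. Within the catalytic F1 head, Atp5b, the beta subunit that holds the catalytic sites, rose from 206, 210.5 and 201 to 296, 280.3 and 284 FPKM (0.48 ± 0.04, adjusted p = 2.1e-08). The alpha subunit Atp5a1, which alternates with it in the head, had a mean of 214 FPKM in both genotypes, with an SD of 5.02 in WT and 5.10 in Pim1-/- libraries (n = 3, limma adjusted p = 0.96), although it passed as lower under quantile normalization (−0.13). Of the stalk subunits, Atp5c1 (0.43 ± 0.06) and Atp5e (0.29 ± 0.05) rose and Atp5d did not pass (−0.05 ± 0.06). All 3 genes for the membrane c-ring rose, Atp5g1 by 0.66 ± 0.06, Atp5g3 by 0.42 ± 0.05 and Atp5g2 by 0.16 ± 0.04.

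**Figure D2:**
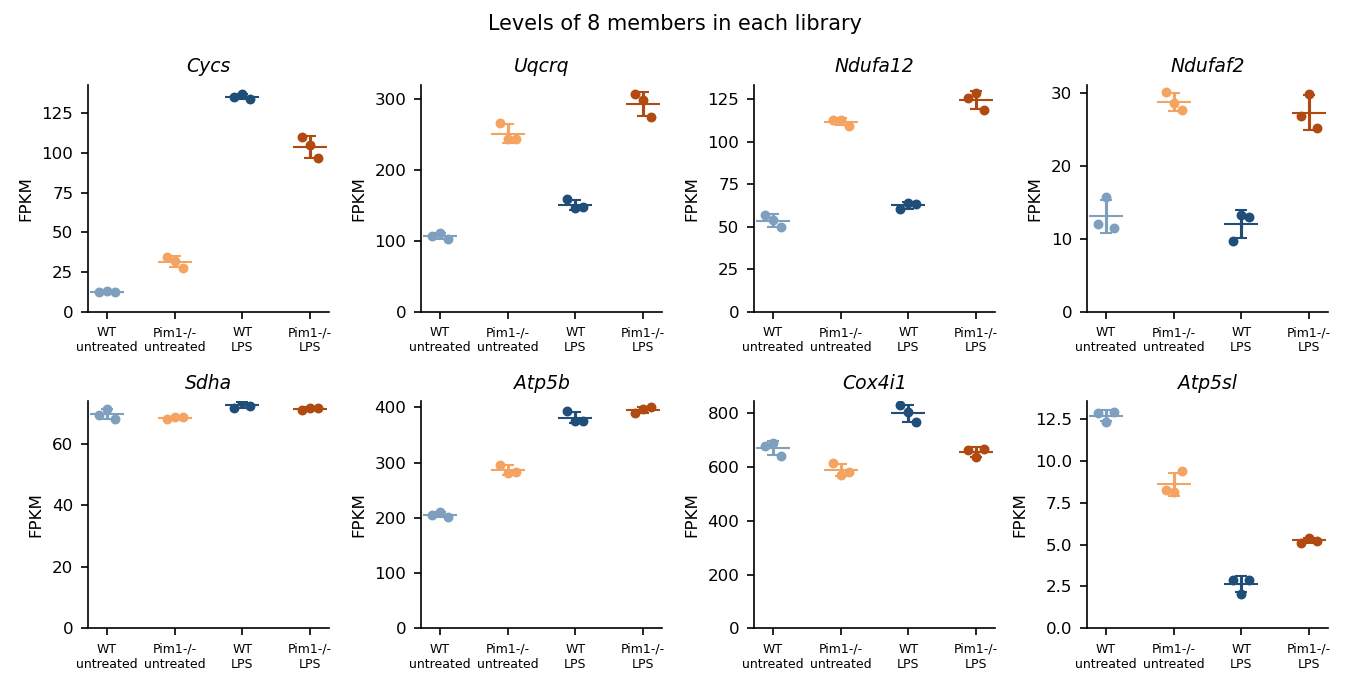
FPKM of 8 members in each of the 12 libraries (points), with the group mean and SD (bars, n = 3), for untreated and LPS-treated WT and Pim1-/- BMDMs; each panel starts at 0. Cycs rises most on LPS, Uqcrq, Ndufa12 and Ndufaf2 separate the genotypes with and without LPS, Sdha stays near 70 FPKM throughout, and Cox4i1 is lower in Pim1-/- cells.

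Summed over each complex, the untreated Pim1-/- libraries lay above the WT libraries in every complex. All members together took 2.16% ± 0.0481 of the summed FPKM of a WT library and 2.98% ± 0.0753 of a Pim1-/- library (SD, n = 3). Complex IV summed to 3062 ± 131 and 3891 ± 163 FPKM, complex I to 2802 ± 117 and 3745 ± 182, complex V to 2968 ± 148 and 4034 ± 211, complex III to 1182 ± 61.3 and 1652 ± 91.8, and complex II to 358 ± 13.6 and 409 ± 14.3 FPKM. In complex IV the 2 most abundant WT transcripts, Cox4i1 and Cox7a2l, both fell, and the sum was higher. The sums were not tested.

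**Figure D3:**
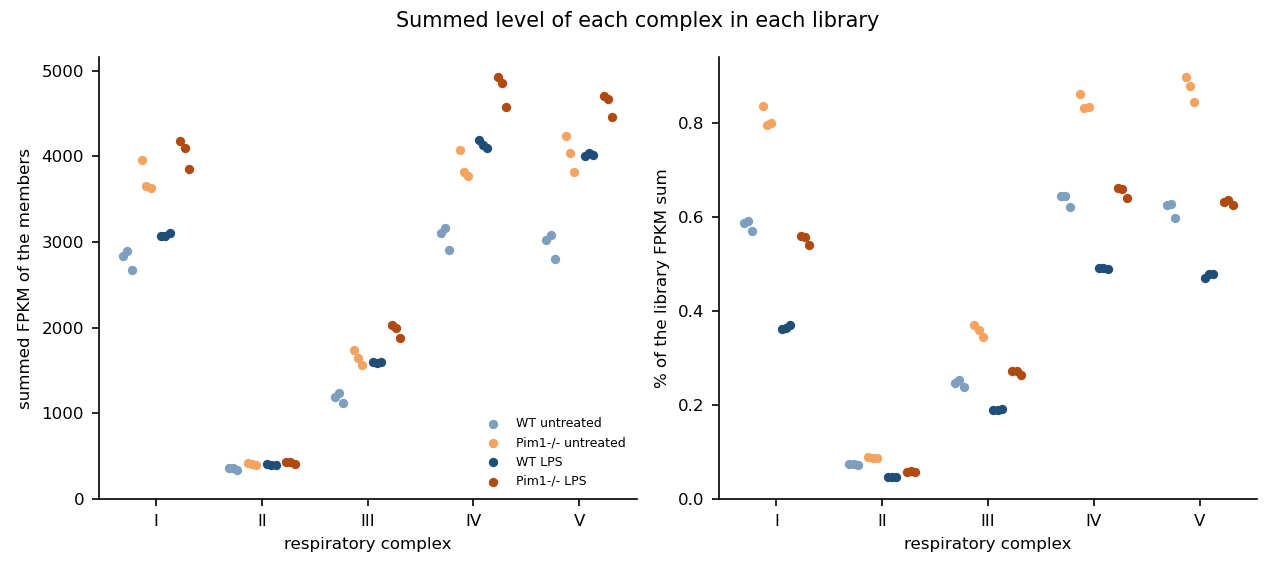
Summed FPKM of the members of each respiratory complex in each library (left) and the same sum as a percentage of the library's summed FPKM (right); points are libraries, colours are the 4 groups. The Pim1-/- libraries lie above the WT libraries of the same treatment in both panels, while the LPS-treated libraries of each genotype have higher means than the untreated ones on the left, with overlap for complexes I and II in Pim1-/- cells, and lie lower on the right.

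Several other features of these cells moved with the genotype. In the absence of LPS all 30 genes of a cell cycle list were higher in Pim1-/- cells (median log2 fold change 3.09), among them Top2a, from 2.96 to 66.9 FPKM. Of the 9 macrophage markers that passed the filter, 7 were lower, and their summed level was 27745 to 29795 FPKM in WT and 14372 to 15303 FPKM in Pim1-/- libraries. The 9 included Csf1r, the M-CSF receptor, at 764 and 254 FPKM, whereas Msr1 was higher, at 28.8 and 97.7 FPKM, and Adgre1 was not found under that symbol. The marker lists of other cell types summed to at most 8.72 FPKM in any library of any group, and all 4 B cell, all 4 mast cell and basophil and all 5 erythroid markers were under 1 FPKM in all libraries. In bulk samples, fewer cells of a type and less RNA per cell cannot be told apart, and the part of cell cycle genes in the higher level of the members was not tested.

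Transcript length also moved with the genotype. Among genes outside the list, the median log2 fold change was 0.11 for transcripts up to 500 nucleotides and −0.16 for those over 4000, and most members are short. Within the same length classes the members stood above the other genes, at 0.56 against 0.11 up to 500 nucleotides, 0.56 against 0.12 from 501 to 800, and 0.40 against 0.00 from 1201 to 2000. With the libraries adjusted for GC content and length, 66 of the 87 members with a length were higher and 8 lower, and the median was 0.31 in place of 0.48. The share of all genes called with this adjustment is not given here, so these counts describe the members alone. The same adjustment left 1 member more than 2-fold higher, which was not Cycs (0.97), and the fall of Uqcrc1 ended (0.01).

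**Figure D4:**
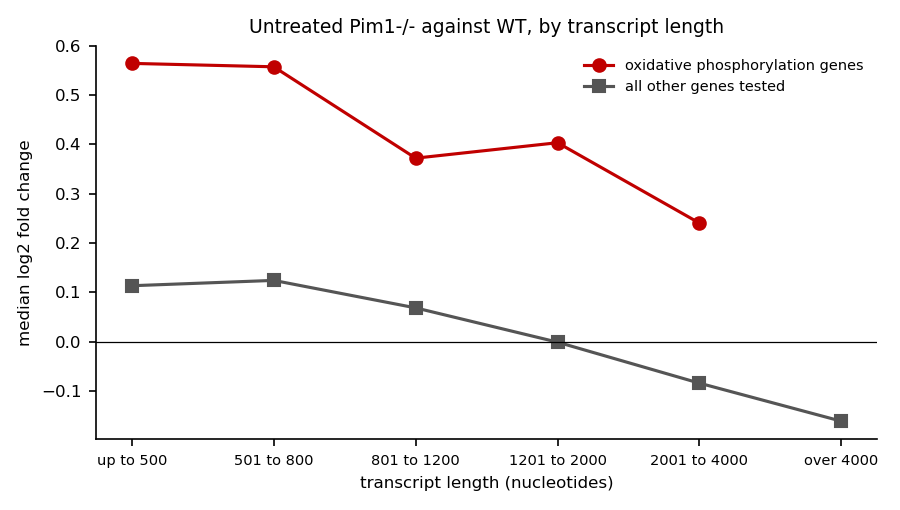
Median log2 fold change between untreated Pim1-/- and WT BMDMs by transcript length class, for oxidative phosphorylation genes (circles) and all other genes tested (squares). From the shortest to the longest class the medians go from 0.56 to 0.24 for the members (18, 32, 14, 17 and 6 genes a class) and from 0.11 to −0.16 for the other genes, and the members lie above the other genes in each of the 5 classes that hold members.

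After LPS the members remained mostly higher in Pim1-/- cells, with smaller differences on the deposited scale. Under quantile normalization the median log2 fold change was 0.46 without LPS and 0.53 after it. At equal FPKM sums it was 0.55 and 0.54, so whether the differences shrank depended on the scaling. The counts and values that follow are on the deposited scale. Of the 88, 66 rose and 9 fell, against 36.4% higher and 42.2% lower among all genes tested, and the median log2 fold change was 0.34 against −0.03. Without Cox6a2 and Cox6b2, whose difference the level filter favoured, 65 of 86 rose and 8 fell, with a median of 0.34. The 3 members more than 2-fold higher (3.51% of all genes tested were) were Ndufaf2, Ndufaf7 and Cox6a2, and 2 remained without Cox6a2 and Cox6b2. The values of Cox6a2, given as a description, were 0.183, 0.287 and 0.101 FPKM in the WT libraries and 1.70, 2.62 and 1.81 FPKM in the Pim1-/- ones. Ndufaf2 was at 9.78, 13.3 and 13.04 against 26.8, 29.9 and 25.2 FPKM (1.13 ± 0.11). Ndufaf7, a methyltransferase that acts in the assembly of complex I, was at 1.42, 1.25 and 1.29 against 3.99, 3.34 and 3.96 FPKM (1.04 ± 0.07). The groups did not overlap in Ndufaf2 and Ndufaf7. In all, 64 members were higher and 9 lower without overlap, as were 35.6% and 41.8% of all genes tested. These counts include Cox6a2 and Cox6b2, which the level filter favoured to differ.

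Cycs turned round. It was at 135, 137 and 134 FPKM in the WT and 110.2, 105 and 96.7 FPKM in the Pim1-/- libraries after LPS, so it was lower in Pim1-/- cells by 0.38 ± 0.07 (adjusted p = 7.6e-05), where it had been higher before, although the call was lost under quantile normalization (−0.10, limma adjusted p = 0.19) and the value was −0.17 at equal FPKM sums. Among the others that fell were Atp5a1 (−0.34 ± 0.04), Cox4i1 (−0.29 ± 0.05), Uqcrc1 (−0.22), Cox5a (−0.19), Atp5d (−0.18 ± 0.06) and Sdhc (−0.10 ± 0.04). Atp5a1, level between the untreated genotypes, stood at 345, 335 and 330.3 FPKM in WT and 262, 264 and 270.5 FPKM in Pim1-/- libraries, without overlap, while its partner Atp5b did not pass (0.05 ± 0.04) on the deposited scale but did under quantile normalization (0.32) and at equal sums (0.26). Under quantile normalization or equal FPKM sums, Cox5a, Atp5d and Sdhc were above 0 and not below it, and under quantile normalization so was Uqcrc1 (0.046). At equal sums the calls of Uqcrc1 (−0.014) and Cox4i1 (−0.080) were lost. The call of Sdhc was lost without the first or the third WT or the first or second Pim1-/- library, with values from −0.10 to −0.094.

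Of the other core subunits after LPS, Ndufs8 (0.64 ± 0.04), Ndufs1 (0.52 ± 0.05), Ndufv2 (0.41 ± 0.07), Ndufv1 (0.32 ± 0.04), Ndufs7 (0.15 ± 0.06), Sdhb (0.27 ± 0.05), Sdhd (0.15 ± 0.06) and Atp5c1 (0.46 ± 0.06) were higher in Pim1-/- cells. Ndufs3 (0.07 ± 0.05), Sdha (−0.02 ± 0.04), Uqcrfs1 (0.07 ± 0.05) and Atp5e (0.09 ± 0.05) did not pass. Ndufs3 (0.30 and 0.27), Uqcrfs1 (0.32 and 0.27) and Atp5e (0.34 and 0.30) did pass as higher under quantile normalization and at equal sums. The call of Ndufs7 was lost without the second WT library (0.097) or the first (0.15) or the third (0.11) Pim1-/- library, and that of Sdhd without the first (0.12) or second (0.13) Pim1-/- library and with the GC and length adjustment (0.0022). Among isoforms, Cox7a1 (0.57 ± 0.16), Cox7a2 (0.35 ± 0.06), Cox6b1 (0.34 ± 0.06), Cox6a1 (0.23 ± 0.05), Cox8a (0.19 ± 0.05), Atp5g1 (0.48 ± 0.06) and Atp5g2 (0.32 ± 0.04) were higher, and Atp5g3 did not pass (−0.05 ± 0.05) but was lower with the GC and length adjustment (−0.21). By complex the medians were 0.40 in complex I, 0.07 in II, 0.38 in III, 0.34 in IV and 0.27 in V. With the GC and length adjustment and the replicate block they were 0.24, −0.011, 0.19, 0.21 and 0.056, and in complex II the median was 0.30 under quantile normalization and 0.27 at equal sums. The cell cycle list was again higher, in 29 of 30 genes with a median of 2.14, and all 9 macrophage markers were lower, with summed levels of 30875 to 31379 FPKM in WT and 15903 to 17799 FPKM in Pim1-/- libraries. Adjusted for GC content and length, 58 members were higher and 13 lower, with a median of 0.20. The share of all genes with that adjustment is again not given.

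The response to LPS within each genotype depended on how the libraries were put on one scale. As deposited, 58 members rose and 14 fell in WT cells (45.0% and 44.6% of all genes tested), with a median of 0.27, and 49 rose and 8 fell in Pim1-/- cells (42.2% and 42.9%), with a median of 0.15. The summed FPKM of a library was 452511 to 489710 without treatment and 713307 to 849323 after LPS. Scaled to equal sums, 5 members rose and 78 fell in WT cells (22.9% and 70.9% of all genes tested). The median was −0.48, with −0.67 for all genes tested. In Pim1-/- cells 1 rose and 85 fell (19.9% and 72.6%), with medians of −0.48 and −0.58. Under quantile normalization 6 rose and 77 fell in WT cells (36.8% and 51.5% of all genes tested), with a median of −0.66 and −0.17 for all genes. In Pim1-/- cells 3 rose and 78 fell (34.0% and 52.3%), with medians of −0.60 and −0.18. As a share of the library, the members went from 2.16% to 1.59% in WT and from 2.98% to 2.18% in Pim1-/- cells. With median-ratio scaling 58 rose and 15 fell in WT cells (44.4% and 45.2% of all genes tested, median 0.25). It gave 45 and 8 in Pim1-/- cells (41.6% and 43.7%, median 0.14). The factors of that scaling ran from 0.984 to 1.01, so the deposited libraries already lay near it. Because the scalings disagree, no direction is given for the members as a group on LPS. The cell cycle list fell in 22 of 30 genes in WT and in 27 of 30 in Pim1-/- cells on the deposited scale. The values below are on the deposited scale, where the median of all genes was 0.00 in WT and −0.01 in Pim1-/- cells.

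**Figure D5:**
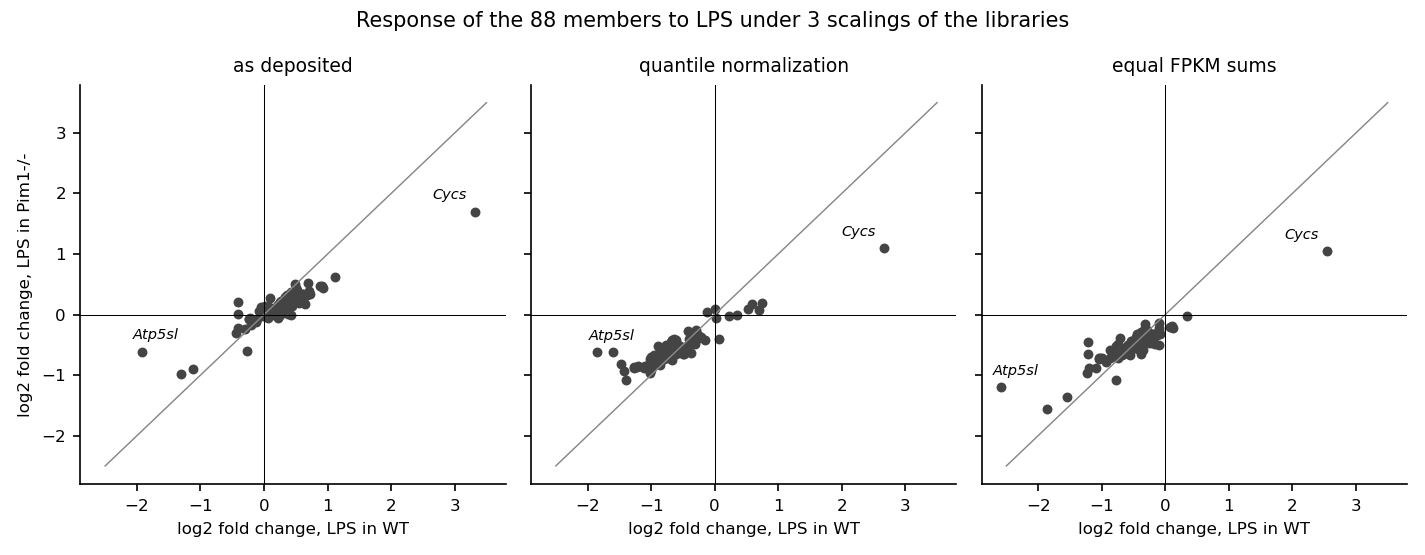
Log2 fold change of log2(FPKM + 1) on LPS in WT (horizontal) against Pim1-/- BMDMs (vertical) for the 88 members, from the deposited values, after quantile normalization and after scaling to equal FPKM sums; the grey line marks equal responses. The bulk of the points moves from above 0 on both axes to below 0 with the scaling, whereas Cycs stays high and to the right of the line in each panel.

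Cycs rose on LPS under each of the 3 scalings. In WT cells it went from 12.6 ± 0.273 to 135 ± 1.54 FPKM (SD, n = 3; 3.32 ± 0.07, adjusted p = 8.3e-17), and in Pim1-/- cells from 31.5 ± 3.49 to 104 ± 6.84 FPKM (1.70 ± 0.07, adjusted p = 7e-13). The other member more than 2-fold higher in WT cells was Ndufs4, an accessory subunit needed for a stable NADH-oxidising arm, which went from 16.8, 18.6 and 16.6 to 39.9, 38.3 and 38.2 FPKM (1.12 ± 0.07). It rose less in Pim1-/- cells, from 26.3 ± 2.60 to 40.9 ± 3.51 FPKM (0.62 ± 0.07), and its value there was −0.03 at equal FPKM sums. More than 2-fold changes were called in 20.1% of all genes upwards and 14.7% downwards in WT cells, and in 14.6% and 10.4% in Pim1-/- cells, where Cycs was the only member.

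The 3 largest falls on LPS in both genotypes were of assembly factors. Atp5sl went from 12.9, 12.3 and 12.9 to 2.89, 2.07 and 2.90 FPKM in WT cells (−1.93 ± 0.08), and from 8.26, 8.13 and 9.37 to 5.11, 5.38 and 5.23 FPKM in Pim1-/- cells (−0.62 ± 0.08). Ndufaf7 fell by 1.31 in WT and by 0.99 in Pim1-/- cells, and Atp5s, the coupling factor B of complex V, by 1.11 and by 0.90. These 3 genes were lower after LPS on each of the 3 scalings.

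Among the core subunits in WT cells, Atp5b (0.89 ± 0.04), Uqcrfs1 (0.70 ± 0.05), Atp5a1 (0.65 ± 0.04), Sdhd (0.55 ± 0.06), Ndufs1 (0.26 ± 0.05), Ndufs3 (0.26 ± 0.05), Atp5e (0.26 ± 0.05), Ndufv2 (0.18 ± 0.07) and Sdhc (0.13 ± 0.04) were called higher. Ndufs7 (−0.40 ± 0.06), Sdhb (−0.20 ± 0.05) and Ndufs8 (−0.13 ± 0.04) were called lower, and Ndufv1 (−0.08 ± 0.04), Sdha (0.06 ± 0.04), Atp5c1 (0.09 ± 0.06) and Atp5d (0.07 ± 0.06) did not pass. Without 1 library the calls of Ndufs8 (−0.10, second LPS-treated), Ndufv2 (0.14, the third untreated) and Sdhc (0.085, the third untreated) were lost. With the GC and length adjustment the calls of Ndufs7 (−0.043), Sdhb (−0.048) and the isoform Atp5g2 (−0.058) were lost and Atp5d passed (0.46). Each of the higher calls of core subunits on the deposited scale turned below 0 under quantile normalization, and all but that of Atp5b did so at equal sums. Ndufv1 passed as lower under quantile normalization (−0.61) and at equal sums (−0.86). Of the isoforms, Cox7a2 (0.93 ± 0.06), Atp5g3 (0.65 ± 0.05), Cox6b1 (0.62 ± 0.06), Cox6a1 (0.54 ± 0.05), Cox8a (0.52 ± 0.05), Cox4i1 (0.26 ± 0.05) and Atp5g1 (0.22 ± 0.06) were higher and Atp5g2 (−0.22 ± 0.04) lower on the deposited scale, and all 7 of those higher were below 0 under quantile normalization and, with the exception of Cox7a2, at equal sums. Cox6a2 (−0.20 ± 0.10), Cox6b2 (0.38 ± 0.24) and Cox7a1 (0.31 ± 0.16) did not pass, but Cox6a2 passed as lower with a pseudocount of 0.1 (−0.73), at equal sums (−0.38) and without the second untreated WT (−0.26), second LPS-treated WT (−0.26) or second LPS-treated Pim1-/- (−0.20) library. Cox7a1 passed without the first untreated (0.48) or first LPS-treated (0.51) library, and Cox6b2 without the first untreated (0.58) or second LPS-treated (0.68) library and under quantile normalization (0.70).

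In Pim1-/- cells, Uqcrfs1 (0.52 ± 0.05), Atp5b (0.46 ± 0.04), Atp5a1 (0.31 ± 0.04), Ndufs3 (0.21 ± 0.05), Ndufs1 (0.20 ± 0.05) and Sdhd (0.20 ± 0.06) were called higher among the core subunits. Ndufs7 (−0.22 ± 0.06) and Ndufs8 (−0.13 ± 0.04) were called lower, the latter not without the first untreated library (−0.10). Ndufv1 (0.06 ± 0.04), Ndufv2 (0.01 ± 0.07), Sdha (0.06 ± 0.04), Sdhb (−0.07 ± 0.05), Sdhc (−0.01 ± 0.04), Atp5c1 (0.12 ± 0.06), Atp5d (−0.06 ± 0.06) and Atp5e (0.07 ± 0.05) did not pass. Cox7a2 (0.44 ± 0.06), Cox6b1 (0.34 ± 0.06), Cox8a (0.26 ± 0.05), Cox6a1 (0.23 ± 0.05), Atp5g3 (0.18 ± 0.05) and Cox4i1 (0.15 ± 0.05) were the isoforms called higher. Cox6a2 (−0.18 ± 0.10), Cox6b2 (0.00 ± 0.24), Cox7a1 (0.13 ± 0.16), Atp5g1 (0.04 ± 0.06) and Atp5g2 (−0.06 ± 0.04) did not pass, but Cox6a2 passed as lower at equal sums (−0.65) and without the second LPS-treated library (−0.31). All of the higher calls on the deposited scale, core and isoform, lay below 0 under quantile normalization and at equal sums, and with the GC and length adjustment those of Ndufs1 (0.073) and Sdhd (0.088) were lost. That adjustment made Ndufv1 (0.24), Atp5e (0.089) and Atp5g1 (0.13) pass as higher. Under quantile normalization and at equal sums Sdhb (−0.86 and −0.72), Sdhc (−0.79 and −0.66), Atp5d (−0.83 and −0.72) and Atp5g2 (−0.93 and −0.72) passed as lower. Further genes changed sign, as listed at the end.

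The difference in LPS response between the genotypes was tested as an interaction, Pim1-/- minus WT. The response was lower in Pim1-/- cells for 34 members and higher for 9, where 34.7% and 31.3% of all genes tested were, with a median of −0.13 against 0.00. These counts turned to 10 lower and 34 higher under quantile normalization, and were 18 and 22 at equal sums. Cycs differed most, by −1.63 ± 0.09 (adjusted p = 1.1e-09), and stayed between −1.49 and −1.63 on the deposited values and both of these scalings. Atp5sl differed in the other direction, by 1.31 ± 0.11 (adjusted p = 1.1e-07). These were the only members whose responses differed more than 2-fold, as did those of 4.43% of all genes downwards and 2.24% upwards.

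The next largest differences downwards were those of Ndufs4 (−0.50 ± 0.10) and Cox7a2 (−0.49 ± 0.08), and upwards those of Cox7a2l (0.62 ± 0.06) and Ndufa6 (0.41 ± 0.07). Cox7a2l fell in WT cells, from 378, 389 and 365 to 291, 279 and 285 FPKM, and rose in Pim1-/- cells, from 306, 283 and 285 to 349, 346 and 320 FPKM. The order of the genotypes for this gene was thus the opposite before and after LPS, without overlap at either time. Among the core subunits, the response was lower in Pim1-/- cells for Atp5b (−0.42 ± 0.05), Sdhd (−0.35 ± 0.08), Atp5a1 (−0.34 ± 0.05), Atp5e (−0.19 ± 0.07), Uqcrfs1 (−0.18 ± 0.06) and Sdhc (−0.14 ± 0.06), and higher for Ndufv1 (0.14 ± 0.06). Ndufs1 (−0.06 ± 0.07), Ndufs3 (−0.04 ± 0.07), Ndufs7 (0.18 ± 0.09), Ndufs8 (0.00 ± 0.06), Ndufv2 (−0.17 ± 0.09), Sdha (0.00 ± 0.05), Sdhb (0.13 ± 0.06), Atp5c1 (0.03 ± 0.09) and Atp5d (−0.13 ± 0.08) did not pass. The calls of Sdhc and Ndufv1 were each lost without any 1 of several libraries, with values from −0.14 to −0.090 for Sdhc and from 0.12 to 0.14 for Ndufv1. The calls of Atp5b (−0.028) and Sdhd (−0.12) were lost under quantile normalization, those of Atp5e (−0.047) and Uqcrfs1 (−0.030) at equal sums, and that of Ndufv1 (0.097) with the GC and length adjustment. Under quantile normalization and at equal sums Ndufs7 (0.36 and 0.33), Sdha (0.23 and 0.15), Sdhb (0.35 and 0.28) and Atp5c1 (0.28 and 0.18) passed as higher.

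Of the isoforms, Atp5g3 (−0.47 ± 0.06), Cox6a1 (−0.31 ± 0.08), Cox6b1 (−0.28 ± 0.08), Cox8a (−0.26 ± 0.07) and Atp5g1 (−0.18 ± 0.08) had a lower response in Pim1-/- cells and Atp5g2 (0.16 ± 0.06) a higher one. Cox4i1 (−0.10 ± 0.06), Cox6a2 (0.03 ± 0.14), Cox6b2 (−0.38 ± 0.33) and Cox7a1 (−0.18 ± 0.23) did not pass. The call of Atp5g1 was lost without any 1 of 8 libraries, with values from −0.18 to −0.12, and under quantile normalization (−0.079) or equal sums (−0.038). The call of Cox8a was lost at equal sums (−0.11) and that of Atp5g2 with the GC and length adjustment (0.10). Under quantile normalization the differences of Atp5a1, Atp5e, Uqcrfs1, Sdhc, Cox6a1, Cox6b1 and Cox8a changed sign. A lower response was called in 34.7% of all genes tested, and by complex in 11 of 16 members of complex V and 7 of 15 of complex IV. In complex III it was 4 of 8, in complex II 2 of 4 and in complex I 9 of 44. The median differences of complexes I to V were −0.06, −0.07, −0.13, −0.26 and −0.22. Under quantile normalization they were 0.066, 0.17, 0.10, 0.073 and 0.047, and at equal sums 0.082, 0.080, 0.016, −0.13 and −0.072.

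The shares of the isoform genes within their families do not depend on the factor by which a library is scaled. They were not adjusted for the GC content and length of the genes. The 3 c-ring genes encode the same mature protein with different targeting sequences. Atp5g2 made up 58.0% ± 0.435 of their summed FPKM in untreated WT and 52.3% ± 0.470 in untreated Pim1-/- cells (SD, n = 3), and 44.7% ± 1.20 and 48.9% ± 0.281 after LPS. Atp5g3 went from 30.7% ± 0.630 to 43.4% ± 1.82 on LPS in WT cells and from 33.2% ± 0.330 to 36.6% ± 0.490 in Pim1-/- cells. The 3 libraries of each group did not overlap with those of any other group for Atp5g2, and the exchange between the 2 genes on LPS was larger in WT cells. With the GC and length adjustment, the calls of Atp5g2 on LPS in WT cells (−0.058) and for the difference in response (0.10) were lost. Atp5g1 made up 11.3% and 14.5% without treatment and 11.8% and 14.5% after LPS in WT and Pim1-/- cells.

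In complex IV the ubiquitous isoforms dominated. Cox6a2 was 0.152% ± 0.0350 of COX6A in untreated WT and 0.687% ± 0.130 in untreated Pim1-/- cells, and Cox6b2 was 0.356% ± 0.165 and 0.0980% ± 0.0540 of COX6B. Cox4i2 was at most 0.0340% of COX4 in any library. Cox7a1 made up 6.50% ± 1.49 of COX7A in untreated WT and 6.43% ± 1.04 in untreated Pim1-/- cells, and the groups overlapped.

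The pathway holds further genes that the naming rule does not take. Cyc1, which encodes the heme subunit of complex III, rose by 0.44 in untreated Pim1-/- cells, from 44.9 ± 1.17 to 61.2 ± 2.09 FPKM. The 3 other ATP synthase genes found also rose: Atpif1, an inhibitor of its reverse activity, from 269 to 482 FPKM (0.84), Usmg5 by 0.63 and 2010107E04Rik by 0.62. After LPS all 3 were higher in Pim1-/- cells and Cyc1 did not pass (0.07).

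Of 37 assembly factors outside the naming rule, 12 rose and 5 fell in untreated Pim1-/- cells, where 33.4% of all genes tested were higher and 42.8% lower, with a median of 0.10. Those with the largest changes were Uqcc2 (0.90), a complex III factor, Nubpl (0.79), which delivers iron-sulfur clusters to complex I, and the copper proteins Cox17 (0.67) and Coa6 (0.65) of complex IV. On LPS in WT cells 16 rose and 15 fell, where 45.0% and 44.6% of all genes tested did. The copper chaperone Sco1 went from 1.89 ± 0.176 to 14.2 ± 0.303 FPKM (2.39), whereas its relative Sco2, the largest fall in Pim1-/- cells (−1.18), went from 16.2 ± 0.295 to 4.27 ± 0.656 FPKM in WT cells. Coa5 (2.29), Cox17 (2.04) and Cox18 (1.85) also rose in WT cells. In Pim1-/- cells Sco1 reached only 6.04 ± 0.244 FPKM, so it was lower than in WT cells after LPS (−1.11), with a difference in response of −1.16.

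The counts of other lists in untreated Pim1-/- cells stand beside the same 33.4% higher and 42.8% lower of all genes tested. Of 77 mitochondrial ribosomal protein genes, 56 rose and 3 fell, with a median of 0.34, and of 78 cytosolic ribosomal protein genes, 52 rose and 9 fell, with a median of 0.18. Of 13 genes of the tricarboxylic acid cycle, 7 rose and 1 fell (0.17), with Idh3a (0.71) and Dld (0.69) rising most. Of 11 coenzyme Q genes, 5 rose and 2 fell (0.12), with Coq7 (1.03), a hydroxylase of the pathway, rising most. Of 7 carriers and channels, 4 rose and 2 fell (0.22). Ucp2, an uncoupling protein family member, fell by 0.89 from 146 to 78.5 FPKM.

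Of 14 regulators of mitochondrial biogenesis, 6 rose and 5 fell in untreated Pim1-/- cells (33.4% and 42.8% of all genes tested). Myc rose from 2.01 to 5.65 FPKM (1.15), and Tfb1m, a mitochondrial ribosomal RNA methyltransferase, rose by 0.79. Nfe2l2 fell by 0.52. After LPS 5 were higher and 8 lower in Pim1-/- cells (36.4% and 42.2% of all genes tested), among the latter Pprc1, a coactivator of the PGC-1 family, at 9.47 and 3.56 FPKM (−1.20), Ppargc1b at 2.81 and 0.546 FPKM (−1.30) and Esrra at 49.5 and 30.4 FPKM (−0.68).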

How the data were processed

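RNA-seq libraries of 12 BMDM samples, 3 in each of 4 groups, were analysed. Per the labels' processing notes, the authors used bcl2fastq (2.20.0.422), cutadapt (1.18), TopHat2 (2.0.13) and Cuffdiff (2.2.1) with the mouse build mm10, whereas the methods name rat rn5. The deposited values carry no unit in their headers and were read as FPKM from the use of Cuffdiff and from their column sums. Neither the library normalization nor the annotation is given in the sources used here. Gene symbols matched GENCODE M21 for 98.3% of genes. No deposited comparison columns were used.

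No rescaling was applied to the deposited values. A gene entered the fit if 3 or more libraries reached 1 FPKM, which left 10581 genes. They were fitted on log2(FPKM + 1), a scale that understates changes of low genes, with limma (3.58.1) under R 4.3.3, with 1 mean for each of the 4 groups and a mean-variance trend. Benjamini-Hochberg adjustment ran over all genes tested, and a gene passed at p under 0.05 and FDR under 0.1, so that some adjusted p-values under 0.1 did not pass. Rose, fell, higher and lower mean passed. Errors beside fold changes are SE from the fit. In simulated data for untreated Pim1-/- against WT cells (10581 genes), 198 of 200 genes changed 1.5-fold were recovered and 15 unchanged genes were called. The simulated noise was independent between genes and few genes changed, whereas 76.2% of all genes passed in the data. The simulation therefore does not give the share of false calls in the data. FPKM holds no counts. The depth estimate rests on 2777 values up to 0.3 FPKM, of which 66.7% lay within 0.05 of a whole multiple of 1 fragment. The size of 1 fragment was fitted to these same values, so that share is no check of the estimate. The method of the estimate was changed once after a free search had given several answers per library. Lengths are those of the shorter middle coding transcript, a choice made after read-through transcripts were seen.

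The members and lists were chosen with earlier results of these data known. Named in each comparison are the core subunits, the isoform genes, the 3 largest rises and falls among those that passed, members more than 2-fold apart and, by level, the highest and lowest of each complex. Of list genes at most 4 were named, those with the largest change, and Pim1. 1 item that the rule names is not reported here. Genes named beside these, such as further falls, Uqcrh, Sco2 in WT cells and the marker examples, were chosen after their values were seen. The 8 motifs and the printed windows were also chosen after the data were seen.

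Alternatives were a pseudocount of 0.1, no filter, 5 FPKM in the filter, scaling by quantiles or by median ratios, only the groups compared, the replicate block, no trend, other thresholds and leaving out each library. Scaling to equal FPKM sums and a loess adjustment (span 0.3) for GC content and length were added after the data were seen. Figures were drawn with matplotlib 3.10.9 and tables made with numpy 2.4.6 and pandas 2.3.3 in Python 3.11.15.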

Additional observations from a re-analysis of the deposited data

Results flagged for a closer look

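The response to LPS differed between Pim1-/- and WT cells by a test of the difference itself. In Pim1-/- cells the response of 34 of the 88 members was lower and that of 9 was higher, where 34.7% and 31.3% of all genes tested were. Under quantile normalization 10 members were lower and 34 higher, and at equal FPKM sums 18 and 22. Cycs stood out with −1.63 and Atp5sl with 1.31 on the log2 scale, followed by Cox7a2l with 0.62. Among members named in the report, the response was also lower for Ndufs4 (−0.50), Cox7a2 (−0.49), Atp5g3 (−0.47), Atp5b (−0.42), Sdhd (−0.35), Atp5a1 (−0.34), Cox6a1 (−0.31), Cox6b1 (−0.28), Cox8a (−0.26), Atp5e (−0.19), Atp5g1 (−0.18), Uqcrfs1 (−0.18) and Sdhc (−0.14). It was higher for Ndufa6 (0.41), Atp5g2 (0.16) and Ndufv1 (0.14). Of these, Atp5a1, Atp5e, Cox6a1, Cox6b1, Cox8a, Sdhc and Uqcrfs1 changed sign under quantile normalization, and the calls of Atp5b (−0.028), Sdhd (−0.12) and Atp5g1 (−0.079) were lost. At equal FPKM sums Sdhc changed sign and the calls of Atp5e, Atp5g1, Cox8a and Uqcrfs1 were lost, and with the GC and length adjustment those of Atp5g2 and Ndufv1. Groups of 3 libraries were not examined for single outlying libraries.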

How the results depend on the processing

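The higher level of the members in Pim1-/- cells kept its direction under every alternative run, with the median between 0.20 and 0.55. The direction of the members as a group on LPS turned under quantile normalization and at equal FPKM sums. Files without counts, groups of 3 and tests that pass most genes limit what a call says. Counts with the GC and length adjustment, the replicate block, FDR under 0.05 or 1 library left out carry no share of all genes. Such counts describe the members alone.

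Quantile normalization and equal FPKM sums moved the LPS counts most, and median-ratio scaling left them near those of the deposited values. In WT cells 6 members rose and 77 fell under quantile normalization (median −0.66), where 36.8% and 51.5% of all genes tested did. At equal FPKM sums 5 rose and 78 fell (−0.48), where 22.9% and 70.9% did. In Pim1-/- cells the counts were 3 and 78 (−0.60, with 34.0% and 52.3% of all genes) and 1 and 85 (−0.48, with 19.9% and 72.6%). The difference in response was higher for 34 and lower for 10 members (0.072), and for 22 and 18 (0.014). Between genotypes after LPS, 3 members fell under quantile normalization and 3 at equal sums (38.6% and 29.3% of all genes), with medians of 0.53 and 0.54. In untreated cells the median at equal sums was 0.55. With the GC and length adjustment, with or without the replicate block, the medians were 0.31 and 0.20 and 14 members fell on LPS in Pim1-/- cells. At FDR under 0.05 the response was higher for 5 members. Counting only changes over 2-fold left 6 higher and 0 lower in untreated cells and 3 and 0 after LPS. Without Cox6a2 and Cox6b2 the higher counts were 5 and 2. It left 2 higher and 3 lower for LPS in WT cells, 1 and 0 in Pim1-/- cells, and 1 and 1 for the difference.

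Leaving out 1 library gave 69 to 72 higher and 6 to 8 lower members in untreated cells (median 0.46 to 0.51), and 60 to 66 and 8 to 9 after LPS (0.32 to 0.38). It gave 55 to 60 and 14 to 15 for LPS in WT cells (0.24 to 0.29), 43 to 53 and 7 to 10 in Pim1-/- cells (0.13 to 0.19), and 5 to 13 and 27 to 37 for the difference (−0.15 to −0.09), with 5 without the first untreated WT library.

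Same-numbered samples were treated as sharing only a number. Their deviations from the group means correlated at 0.33 to 0.46 between untreated genotypes and at 0.02 to 0.37 after LPS over genes of at least 10 FPKM in every library, but at 0.01 to 0.45 and −0.07 to 0.28 over genes whose mean reached 10 FPKM. Between the times they correlated at 0.43 to 0.68 in Pim1-/- and −0.10 to 0.19 in WT cells over the first set of genes, and at 0.08 to 0.36 and 0.06 to 0.16 over the second, so the choice of genes, made with results known, decides the check. With the replicate block the counts higher and lower were 72 and 7, 68 and 9, 60 and 16, 50 and 8, and 12 and 40 in the order untreated, after LPS, LPS in WT cells, LPS in Pim1-/- cells and difference. Among the named genes the block ended no call. With it Ndufs7 (limma adjusted p = 0.020), Ndufv2 (0.028), Sdhb (0.029) and Atp5d (0.066) passed for the difference, Atp5e (0.058) between genotypes after LPS, Atp5c1 (0.035), Cox6a2 (0.049) and Ndufv1 (0.054) for LPS in WT cells, and Atp5c1 (0.0072) for LPS in Pim1-/- cells.

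Single genes turned as follows; the cause was not tested. Between untreated genotypes, signs changed with the GC and length adjustment in Atp5d (0.11), Ndufs7 (0.097) and Uqcrc1 (0.0060). Between genotypes after LPS, signs changed under quantile normalization in Atp5d (0.10), Atp5g3 (0.23), Sdha (0.22), Sdhc (0.14), Uqcrc1 (0.045) and Cox5a (0.081). Between genotypes after LPS, signs changed at equal FPKM sums in Atp5d (0.026), Atp5g3 (0.16), Sdha (0.18), Sdhc (0.10) and Cox5a (0.019). Between genotypes after LPS, signs changed with the GC and length adjustment in Uqcrfs1 (−0.090). For LPS in WT cells, signs changed under quantile normalization in Atp5a1 (−0.59), Atp5b (−0.34), Atp5c1 (−1.01), Atp5d (−1.02), Atp5e (−1.02), Atp5g1 (−0.66), Atp5g3 (−0.48), Cox4i1 (−0.80), Cox6a1 (−0.73), Cox6b1 (−0.63), Cox7a2 (−0.15), Cox8a (−0.74), Ndufs1 (−0.26), Ndufs3 (−0.63), Ndufv2 (−0.47), Sdha (−0.87), Sdhc (−0.89), Sdhd (−0.51) and Uqcrfs1 (−0.30). For LPS in WT cells, signs changed at equal FPKM sums in Atp5a1 (−0.16), Atp5c1 (−0.72), Atp5d (−0.74), Atp5e (−0.55), Atp5g1 (−0.58), Atp5g3 (−0.16), Cox4i1 (−0.56), Cox6a1 (−0.27), Cox6b1 (−0.19), Cox7a1 (−0.40), Cox8a (−0.29), Ndufs1 (−0.52), Ndufs3 (−0.54), Ndufv2 (−0.61), Sdha (−0.74), Sdhc (−0.67), Sdhd (−0.26) and Uqcrfs1 (−0.11). For LPS in WT cells, signs changed with the GC and length adjustment in Atp5c1 (−0.16), Ndufs8 (0.16), Ndufv1 (0.14) and Ndufv2 (−0.13). For LPS in Pim1-/- cells, signs changed under quantile normalization in Atp5a1 (−0.54), Atp5b (−0.37), Atp5c1 (−0.73), Atp5e (−0.78), Atp5g1 (−0.74), Atp5g3 (−0.66), Cox4i1 (−0.73), Cox6a1 (−0.66), Cox6b1 (−0.50), Cox7a2 (−0.42), Cox8a (−0.65), Ndufs1 (−0.34), Ndufs3 (−0.49), Ndufv1 (−0.42), Ndufv2 (−0.61), Sdha (−0.64), Sdhd (−0.63) and Uqcrfs1 (−0.25). For LPS in Pim1-/- cells, signs changed at equal FPKM sums in Atp5a1 (−0.35), Atp5b (−0.20), Atp5c1 (−0.54), Atp5e (−0.59), Atp5g1 (−0.62), Atp5g3 (−0.48), Cox4i1 (−0.51), Cox6a1 (−0.44), Cox6b1 (−0.32), Cox7a1 (−0.48), Cox7a2 (−0.22), Cox8a (−0.40), Ndufs1 (−0.45), Ndufs3 (−0.44), Ndufs4 (−0.029), Ndufv1 (−0.59), Ndufv2 (−0.64), Sdha (−0.59), Sdhd (−0.46) and Uqcrfs1 (−0.14). For LPS in Pim1-/- cells, signs changed with the GC and length adjustment in Atp5c1 (−0.091), Atp5d (0.24), Ndufs7 (0.050), Ndufs8 (0.099) and Ndufv2 (−0.25). For the difference in LPS response, signs changed under quantile normalization in Atp5a1 (0.047), Atp5d (0.18), Atp5e (0.24), Cox6a1 (0.070), Cox6b1 (0.13), Cox8a (0.096), Ndufs3 (0.14), Sdhc (0.10) and Uqcrfs1 (0.047). For the difference in LPS response, signs changed at equal FPKM sums in Sdhc (0.011).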
